A study of Mus musculus with 6 samples.

Results

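The Hox genes are transcription factor genes that lie side by side in 4 clusters of the mouse genome, Hoxa, Hoxb, Hoxc and Hoxd. Here they were followed through the mammary cycle and in Brca1 mutant glands, in the whole mammary glands of 6 female mice hybridised to 6 arrays. A gene belonged to the set if its symbol was Hoxa, Hoxb, Hoxc or Hoxd followed by a number and if a probe set carried that symbol alone. That gave 33 genes, 9 of Hoxa, 9 of Hoxb, 7 of Hoxc and 8 of Hoxd, out of 18193 genes with such a probe set. RefSeq lists 39 Hox genes in the 4 clusters (GRCm38.p6), and those without a probe set of their own symbol alone are not analysed here.

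Hox proteins bind DNA through a homeodomain, mostly together with cofactors of the Pbx and Meis families, and set the identity of tissues along the body axis. Genes of the same number in different clusters are paralogs of common origin. Within a cluster, low numbers are used at the front of the embryo and high numbers towards the tail. In the mammary gland, Hoxc8 takes part in placing the embryonic buds and loss of Hoxa5 disturbs the growth of the epithelium. Mice that lack Hoxa9, Hoxb9 and Hoxd9 together form poorly developed glands in pregnancy and nurse badly. In human breast cells HOXA9 is known as an activator of BRCA1.

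Each of 3 stages was represented by 1 Brca1 mutant and 1 control mouse of a mixed 129/FVB/Black Swiss background. Virgin mice were 6 months old. The mice at day 1 of lactation were 2 months old. In both pairs the mutant was Brca1 D11/D11;p53+/- and the control Brca1 D+/+;p53+/-, so that all 4 mice carried the p53 mutation. The pregnant pair, at day 16.5 of pregnancy and 5 months of age, was a Brca1 co/co/MMTV-Cre mutant and a Brca1 +/co/MMTV-Cre control, according to the sample labels, although the design text gives all mutants the D11 genotype. The MMTV promoter drives Cre mainly in mammary epithelium, and other cells of the gland are not its main target. The study set out to find genes regulated by Brca1.

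The values are MAS5 signals, a linear measure of brightness, and every array had been scaled to a trimmed mean of 500.0. The names of the lactating arrays carry a different date from those of the other 4, so that stage, age and array date cannot be told apart there. The Brca1 probe set gave 137.0 and 486.5 in virgin, 158.7 and 288.0 in pregnant and 237.6 and 156.7 in lactating glands, control first. Whether it lies in the deleted part was not determined, so these signals do not check the genotypes. Luminal and basal epithelial markers were bright on every array, with summed signals over 7 genes each of at least 43311 and 17386. In whole glands, fewer cells of a type and less RNA per cell cannot be told apart.

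Many Hox genes gave signals no brighter than those of genes that a mammary gland should not use. As a dark level, the 90th percentile of 77 olfactory and vomeronasal receptor probe sets was taken on each array. It lay between 89.7 and 105.7 on the virgin and pregnant arrays and at 382.3 and 332.9 on the lactating control and mutant. Of the 33 Hox genes, 17 were above it in each virgin gland and 15 in each pregnant gland, against 6 in the lactating control and 9 in the lactating mutant. The rise of the dark level on the lactating arrays goes with the drop in these counts, and its part in them was not tested.

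Hoxa5, Hoxb2, Hoxb4, Hoxc6, Hoxd8 and Hoxd9 were above the dark level on all 6 arrays. At the other end, 11 Hox genes were above it on none, and the remaining 16 on some arrays. Genes of paralog groups 9 to 13, those of the tail end, made up 14 of the 33 measured genes and 7 of the 11 that never passed. Among these 7 were Hoxb13, Hoxc13, Hoxd11, Hoxd12 and Hoxd13. Hoxb13 is known from the prostate and hindgut and Hoxc13 from hair follicles. The signal of Hoxb13 never exceeded 13.8 and that of Hoxc13 never exceeded 43.9. The other 4 were Hoxa2, Hoxa4, Hoxa7 and Hoxd1, of which Hoxa2 acts in the hindbrain and never exceeded 78.0.

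**Figure D1:**
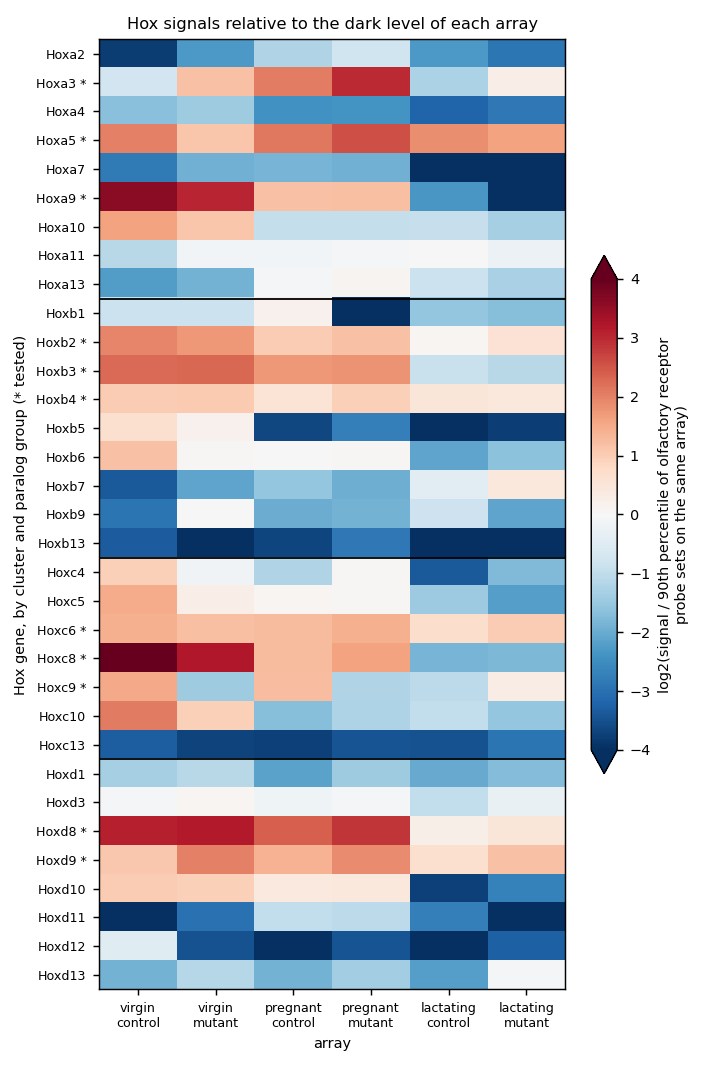
Heat map of the 33 measured Hox genes (rows, by cluster and paralog number) on the 6 arrays (columns), coloured by the log2 ratio of each signal to the 90th percentile of the 77 receptor probe sets on the same array. Red genes lie above that dark level, as 17 do in each virgin gland and 6 do in the lactating control, and blue genes below it.

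Tests were run on genes whose mean log2(signal + 52.1) reached the median of all probe sets, 7.715, which left 11496 genes, 11 of them Hox genes. Those were Hoxa3, Hoxa5, Hoxa9, Hoxb2, Hoxb3, Hoxb4, Hoxc6, Hoxc8, Hoxc9, Hoxd8 and Hoxd9. Just inside the limit lay Hoxc9 at 7.723, and just outside it Hoxa10 at 7.567, Hoxa11 at 7.559 and Hoxd3 at 7.518. Stages and genotypes were compared in 1 limma model over all 11496 genes, with Benjamini-Hochberg adjusted p-values and calls at an adjusted p of 0.05. The other 22 Hox genes are described by their signals. Wherever signals are listed by stage, the control comes first and the mutant second.

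Between virgin and late-pregnant glands, Hoxc8 and Hoxa9 fell and Hoxa3 rose. These 3 were the Hox genes called, out of 11 tested. Both Hoxa9 and Hoxc8 reached the brightness limit through their virgin signals, and neither was tested with both virgin arrays left out. Their calls as lower than in virgin glands are thus not independent of that limit. With no limit on brightness Hoxa9 and Hoxc8 were called lower as well (limma adjusted p = 0.0221 and 0.0151). The array background was 6.45% of all tested genes called higher and 8.26% called lower in pregnancy. The median log2 ratio was -0.16 over the 11 Hox genes and -0.06 over all tested genes.

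Hoxc8 lies in the middle of its cluster and had 1 probe set. It gave signals of 1836.9 and 954.0 in virgin glands, 254.4 and 306.6 in pregnant glands, and 106.3 and 95.7 in lactating glands. Signals thus stepped down from stage to stage with no overlap, and the lactating values lay below the dark level. The log2 ratio of pregnant to virgin was -2.06 ± 0.31 (SE, 2 arrays a stage; limma adjusted p = 0.00754).

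Hoxa9, which belongs to the paralog group needed for mammary growth in pregnancy, took the same course. Its signal was 1096.7 and 855.8 in virgin glands, 235.6 and 231.1 in pregnant glands, and 76.3 and 15.4 in lactating glands. The stages did not overlap, and both lactating signals were below the dark level. The log2 ratio of pregnant to virgin was -1.84 ± 0.31 (SE; limma adjusted p = 0.0106). A second probe set of Hoxa9 gave 183.5, 282.0, 51.4, 196.9, 444.7 and 379.4 in the same order of arrays. Its log2 ratio of pregnant to virgin was -0.81, but its signals were highest in lactation, so the lower lactation signal of Hoxa9 rests on 1 of its 2 probe sets.

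Hoxa3, a front-end gene with roles in the thymus and parathyroid, went the other way. Its signal was 53.2 and 237.3 in virgin glands, 437.2 and 801.3 in pregnant glands and 160.6 and 402.2 in lactating glands. Both pregnant signals lay above both virgin ones, while the lactating mutant came close to the pregnant control. The signals of the virgin control and the lactating control lay below the dark level. The log2 ratio of pregnant to virgin was 1.89 ± 0.28 (SE; limma adjusted p = 0.00674). The other 3 probe sets of Hoxa3 gave signals of 13.3 to 235.9 and log2 ratios of -0.84 to 0.20 for the same comparison, and the RefSeq span of Hoxa3 overlaps other genes of its cluster.

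Some Hox genes below the limit for testing shared the fall from virgin to pregnant. Hoxc10 gave 381.8 and 204.0 in virgin, 32.6 and 42.8 in pregnant and 193.0 and 114.8 in lactating glands. For Hoxa10, a gene best known from the uterus, these signals were 270.9 and 227.0, 54.3 and 51.3, and 199.9 and 133.7. Hoxb5 gave 139.4 and 117.6 in virgin, 8.5 and 15.2 in pregnant and no more than 24.4 in lactating glands. In all 3 genes the pregnant signals lay below the virgin ones and below the dark level. With no limit on brightness, limma called these 3 lower as well, with adjusted p-values of 0.0261, 0.035 and 0.026, so that 6 of 33 Hox genes passed. In that fit 7.21% of all 18193 genes were called. The second probe set of Hoxa10 had a log2 ratio of 0.24.

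Over all 33 Hox genes, both pregnant signals lay below both virgin ones for 13 and above them for 8, and they overlapped for 12. The share over all genes was not computed, so these counts are not read as a trait of the Hox genes. No Hox gene was called between virgin and pregnant when the virgin control or the pregnant control was left out. Those fits called 238 and 339 genes in all, against 1690 with every array, and without the virgin mutant the Hoxa9 call was lost. The pregnant pair also carried other Brca1 alleles than the virgin pair, and its labels name no p53 mutation, which cannot be told apart from the stage.

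At day 1 of lactation the Hox genes parted in both directions. Against virgin glands 9 of the 11 tested genes were called, Hoxa5, Hoxc6, Hoxb4, Hoxd9 and Hoxa3 as higher and Hoxa9, Hoxc8, Hoxb3 and Hoxd8 as lower. The background was high, with 23.7% of all tested genes called higher and 28.3% lower, so that a call by itself was common. The median log2 ratio was 0.83 over the 11 Hox genes and -0.10 over all tested genes.

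Hoxa9 and Hoxc8 were lower in lactation, where all 4 of their signals lay below the dark level and give only a bound. With the dark level in place of those signals, Hoxa9 was at least 2.5-fold and Hoxc8 at least 3.37-fold lower than in virgin glands, on the log2(signal + 52.1) scale. The fitted log2 ratios were -3.46 ± 0.31 (limma adjusted p = 0.000244) for Hoxa9 and -3.17 ± 0.31 (limma adjusted p = 0.000341) for Hoxc8. With other pseudocounts they ran from -4.23 to -2.42 and from -3.53 to -2.48. On these probe sets both calls held with any 1 array left out and under quantile normalization, median centring and subtraction of the olfactory median. Hoxb3, an overlapping neighbour of Hoxb4, gave 435.6 and 511.6 in virgin, 348.6 and 346.6 in pregnant and 204.7 and 155.9 in lactating glands. Its signals descended through the stages without overlap, by a log2 ratio of -1.18 ± 0.26 from virgin to lactating (SE; limma adjusted p = 0.00705), and the call was lost without the virgin mutant. Both lactating signals of Hoxb3 were below the dark level, which leaves it at least 1.28-fold lower. Its second probe set had a log2 ratio of -0.05, and with both averaged the ratio was -0.62 (limma adjusted p = 0.166).

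Hoxd8 gave 780.7 and 939.4 in virgin, 559.6 and 731.0 in pregnant and 450.7 and 464.9 in lactating glands. Each stage lay below the one before, and Hoxd8 stayed above the dark level throughout. The log2 ratio of lactating to virgin was -0.83 ± 0.21 (SE; limma adjusted p = 0.0122), with -0.86 on its second probe set. The call was lost without the virgin control, the virgin mutant or the lactating mutant, at log2 ratios of -0.70 to -0.86.

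Among the tested Hox genes that rose, Hoxa5 had the largest ratio. Its signal was 362.8 and 226.0 in virgin, 459.7 and 592.7 in pregnant and 1389.9 and 1005.0 in lactating glands. The lactating glands stood clear of the others and of the dark level, at a log2 ratio to virgin of 1.86 ± 0.27 (SE; limma adjusted p = 0.00134). This probe set is of a kind prone to cross-hybridisation. The other probe set of Hoxa5 gave 130.6, 125.9, 282.9, 196.5, 202.0 and 32.7 over the same 6 arrays, with a log2 ratio of -0.30, so the rise was seen on 1 of 2 probe sets.

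Hoxc6 is known in the mammary gland as a gene under ovarian control. It gave 241.8 and 240.0 in virgin, 256.7 and 270.4 in pregnant and 628.8 and 667.6 in lactating glands. Virgin and pregnant signals lay close together and both lactating glands were higher, by a log2 ratio to virgin of 1.26 ± 0.23 (SE; limma adjusted p = 0.0035). This probe set too is of the kind prone to cross-hybridisation, and the 3 probe sets of Hoxc6 did not move alike. Of the others, 1 had a log2 ratio of 2.12 and the third of -1.72.

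Hoxb4, a gene that sustains blood stem cells when overexpressed, was measured at 183.0 and 214.6 in virgin, 154.1 and 192.5 in pregnant and 533.2 and 442.9 in lactating glands. Virgin and pregnant signals overlapped and the lactating ones were higher, at a log2 ratio to virgin of 1.10 ± 0.27 (SE; limma adjusted p = 0.0118). Its second probe set had a log2 ratio of 0.87. The call was lost without the virgin control, the virgin mutant or the lactating control, at 0.88 to 1.19.

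Hoxd9, the paralog of Hoxa9 in the Hoxd cluster, gave 189.9 and 418.6 in virgin, 277.7 and 374.2 in pregnant and 601.0 and 753.6 in lactating glands. Only the lactating pair stood apart. The log2 ratio of lactating to virgin was 1.10 ± 0.26 (SE; limma adjusted p = 0.00933), and the call was lost without the virgin control or the lactating control, at 0.79 and 0.92. Hoxa3 was called higher at 0.83 ± 0.28 (SE; limma adjusted p = 0.0375), but lost the call whichever of the 6 arrays was left out, at 0.58 to 1.09, and its virgin and lactating signals overlapped.

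**Figure D2:**
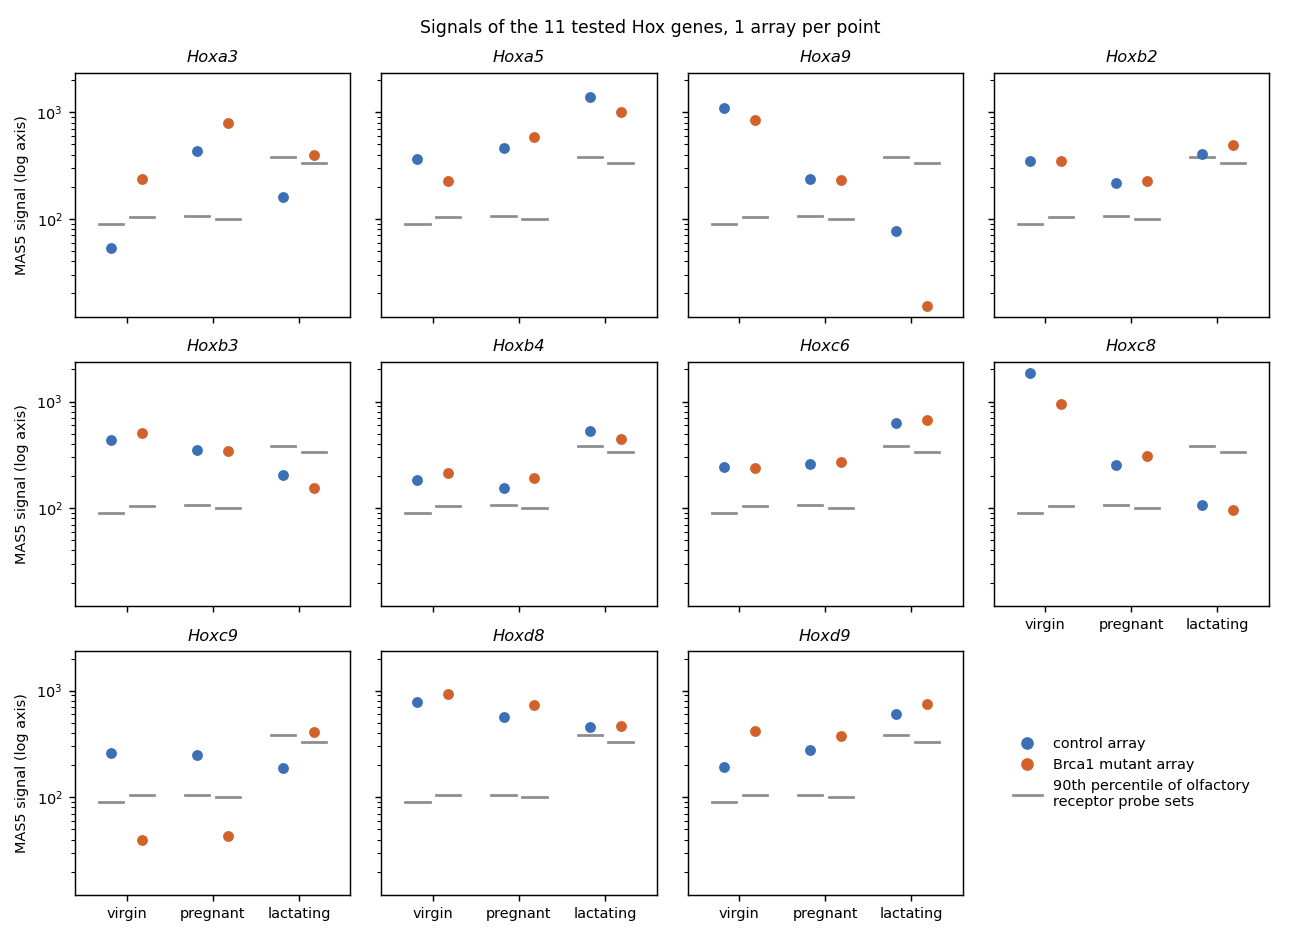
MAS5 signal (log axis) of the 11 tested Hox genes by stage, 1 point per array, with controls in blue and Brca1 mutants in orange. Grey bars mark the 90th percentile of the receptor probe sets on each array. Hoxc8 steps down from 1836.9 and 954.0 in the virgin to 106.3 and 95.7 in the lactating glands, while Hoxa5 and Hoxc6 are highest in lactation.

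How many Hox genes count as higher in lactation depends on the scaling. With arrays centred on their medians, the lactating glands had 2 Hox genes called higher and 4 lower against virgin, in place of 5 and 4. Hoxa5 at 1.27 and Hoxc6 at 0.67 stayed called, while Hoxb4 and Hoxd9, both at 0.51, and Hoxa3 at 0.24 did not. The median over all tested genes moved from -0.10 to -0.69 in log2 under that scaling, and the share of all calls that were higher from 45.5% to 18.4%. With the olfactory median of each array subtracted first, 4 Hox genes were higher and 4 lower and that share was 35.9%. Without the virgin control or without the virgin mutant, fewer Hox genes were called. The calls over all genes in those fits are not given here, so this loss is not read as a trait of the Hox genes.

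The dim Hox genes that passed in lactation only when no gene was left out for its brightness lay at or under the dark level there, except Hoxb7 in the mutant. With no limit on brightness 14 of 33 Hox genes were called against virgin, 8 higher and 6 lower. With the limit in place 52.0% of all tested genes were called in this comparison. That is not the share for the fit without the limit, so the 14 calls are not read as a trait of the Hox genes. The additional lower ones were Hoxb5 and Hoxd10, the latter at 181.2 and 204.6 in virgin, 138.8 and 133.1 in pregnant and 28.6 and 51.4 in lactating glands. The additional higher ones were Hoxa11, Hoxa13, Hoxb7 and Hoxd13, while Hoxa3 lost its call (limma adjusted p = 0.0587). Hoxb7 gave 8.8 and 24.5 in virgin, 36.5 and 26.1 in pregnant and 284.1 and 447.9 in lactating glands, and only the last of these was above the dark level. The lactating signals of Hoxa11, at 378.4 and 282.6, of Hoxa13, at 210.9 and 135.0, and of Hoxd13, at 83.5 and 315.4, were below it. The median of the 77 receptor probe sets rose as well, from 28.6 and 33.4 in the virgin to 111.4 and 109.9 in the lactating arrays, and its part in these rises was not tested.

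From late pregnancy to lactation, 8 of the 11 tested Hox genes were called. The background was 14.9% of tested genes higher and 16.8% lower. Hoxb4 (log2 ratio 1.26 ± 0.27 SE), Hoxc6 (1.15 ± 0.23), Hoxa5 (1.10 ± 0.27), Hoxd9 (0.95 ± 0.26) and Hoxb2 (0.87 ± 0.24) were higher, with limma adjusted p-values of 0.0115 to 0.0309. Hoxa9 (-1.62 ± 0.31), Hoxc8 (-1.12 ± 0.31) and Hoxa3 (-1.06 ± 0.28) were lower, with limma adjusted p-values of 0.00985 to 0.0321, although the lactating signals of Hoxa9 and Hoxc8 were below the dark level. Hoxb2, a hindbrain gene in the embryo, gave 351.1 and 349.6 in virgin, 215.3 and 226.4 in pregnant and 404.0 and 494.7 in lactating glands. Its pregnant signals were the lowest and its lactating signals the highest.

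Fewer of these calls between late pregnancy and lactation held when some single arrays were left out. The calls over all genes in those fits are not given here, so the losses are not read as a trait of the Hox genes. Without the pregnant control 2 Hox genes were called, without the pregnant mutant 1 and without the lactating control 3. Under median centring 2 were higher and 5 lower, and the share of all calls that were higher went from 47.0% to 16.5%. The median log2 ratio was 0.87 over the 11 Hox genes and -0.04 over all tested genes at the deposited scaling, and -0.45 over all tested genes after median centring. The lactating and pregnant comparisons share arrays with those against virgin glands, so the directions of a gene in them are not independent.

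Some neighbours within a cluster were called in opposite directions between virgin and lactating glands. In Hoxc, Hoxc6 rose and Hoxc8, 4.0 kb away, fell. In Hoxd, Hoxd9 rose and Hoxd8, 4.4 kb away, fell, and in Hoxb, Hoxb4 rose and Hoxb3, which overlaps it, fell. These 3 were among 5 pairs of tested genes with no other Hox gene between them. The share of opposite calls over other neighbouring genes was not computed, so this count is not read as a trait of the clusters. In Hoxa, Hoxa5 rose and Hoxa9 fell, but they lie 18.5 kb apart with other Hox genes between them, of which the dim Hoxa7 was measured. Under median centring Hoxd9 and Hoxb4 lost their calls.

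The opposite directions depend on the probe set in Hoxa and Hoxc. Other probe sets gave log2 ratios of -0.30 for Hoxa5 and 0.72 for Hoxa9, which turns that pair around, and -1.72 for Hoxc6, on the side of Hoxc8. With the probe sets of a gene averaged, Hoxa5 (0.78), Hoxc6 (0.55) and Hoxb3 (-0.62) lost their calls, with limma adjusted p-values of 0.0517, 0.11 and 0.166. The second probe sets of Hoxd8 and Hoxb4 had the same sign as the first.

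**Figure D3:**
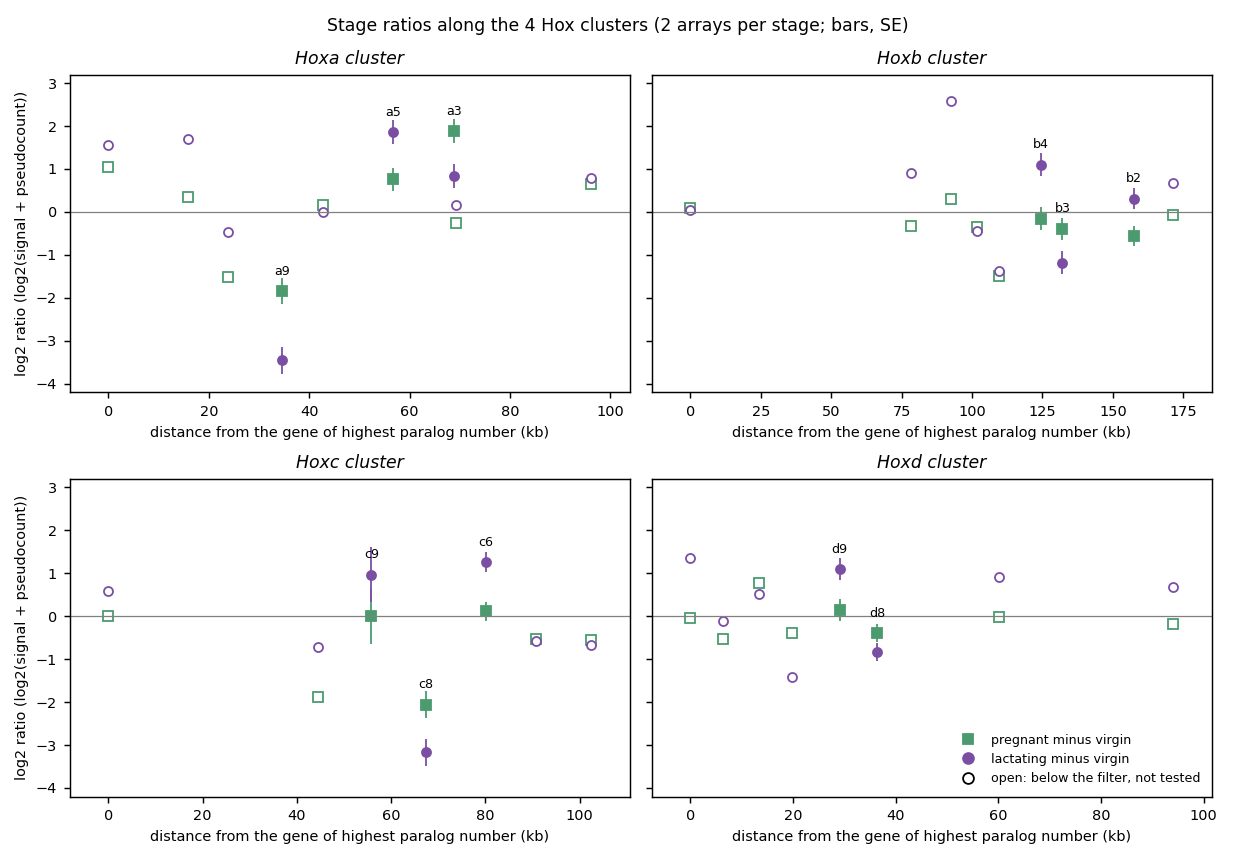
Log2 ratio of pregnant (green squares) and lactating (purple circles) to virgin glands for each measured Hox gene, against its distance in kb from the gene of the highest number in its cluster. Filled symbols are tested genes with SE bars, and open symbols are genes below the limit for testing. Hoxc8 lies far below 0 in both comparisons, while its neighbour Hoxc6 lies above 0 in lactation.

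Start-site sequences of Hox genes of 1 cluster that parted on the tested probe sets are shown so that their makeup can be compared. The labels rose and fell give the direction from virgin to lactating glands on those probe sets. On their other probe sets Hoxa5 (-0.30) and Hoxa9 (0.72) went the opposite ways. They are the 250 bases upstream of the RefSeq start sites (GRCm38.p6), 5' to 3' on the strand of the gene, with each CG dinucleotide in capitals. For Hoxa5 and Hoxa9 these are chr6:52204588-52204837 and chr6:52227371-52227620, both on the minus strand. For Hoxd8 and Hoxd9 they are chr2:74704365-74704614 and chr2:74697513-74697762, both on the plus strand.
Hoxa5, rose: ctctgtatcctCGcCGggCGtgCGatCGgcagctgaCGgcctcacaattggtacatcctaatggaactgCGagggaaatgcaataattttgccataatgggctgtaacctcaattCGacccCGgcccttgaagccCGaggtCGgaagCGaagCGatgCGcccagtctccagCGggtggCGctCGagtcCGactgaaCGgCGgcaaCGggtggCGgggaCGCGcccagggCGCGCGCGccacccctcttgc
Hoxa9, fell: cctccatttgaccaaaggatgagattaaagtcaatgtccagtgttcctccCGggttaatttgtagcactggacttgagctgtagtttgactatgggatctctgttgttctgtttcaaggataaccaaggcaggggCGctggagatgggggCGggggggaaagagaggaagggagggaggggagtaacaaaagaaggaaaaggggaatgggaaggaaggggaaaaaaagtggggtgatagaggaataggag
Hoxd9, rose: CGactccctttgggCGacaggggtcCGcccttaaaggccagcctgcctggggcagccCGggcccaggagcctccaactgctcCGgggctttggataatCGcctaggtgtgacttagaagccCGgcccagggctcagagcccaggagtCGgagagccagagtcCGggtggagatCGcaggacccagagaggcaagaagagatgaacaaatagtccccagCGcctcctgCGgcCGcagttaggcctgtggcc
Hoxd8, fell: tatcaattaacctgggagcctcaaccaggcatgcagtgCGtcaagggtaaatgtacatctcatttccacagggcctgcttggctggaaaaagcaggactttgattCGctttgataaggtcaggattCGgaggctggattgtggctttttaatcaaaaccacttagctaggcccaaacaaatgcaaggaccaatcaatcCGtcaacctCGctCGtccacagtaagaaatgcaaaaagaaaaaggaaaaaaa

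Hoxa5 has 28 CG dinucleotides in this window and Hoxa9 has 3, while Hoxd9 has 13 and Hoxd8 has 6. These are descriptions of 4 windows, and no methylation or binding was measured. The RefSeq table held 24 windows of 22 Hox genes, 19 of them measured here, and none for Hoxc6, Hoxc8 or Hoxb3. The 24 windows had a median of 12.5 CG dinucleotides (range 2 to 35), against 6 over 32851 windows of all genes. Hoxb4, which rose, had 14, and Hoxd10, which was among the lower genes without a limit on brightness, had 20.

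Short motifs were counted on both strands of the same windows. CCAAT, the CCAAT box, occurred in 14 Hox windows (58.3%), against 33.8% of all windows, and among the windows printed above in those of Hoxa5 and Hoxd8. GGGCGG, the GC box, occurred in 10 (41.7%), against 32.7% of all, among them Hoxa9 and Hoxd9. TATAAA, the TATA box, occurred in 4 (16.7%), against 12.4%, and TGATNNAT, a form of the joint Pbx and Hox site, also in 4 (16.7%), against 7.68%. None of the 4 printed windows held TATAAA or TGATNNAT.

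No Hox gene passed the test between Brca1 mutant and control glands. The background was 0% of the 11496 tested genes by limma, with 541 genes at an unadjusted p under 0.05, 2 of them Hox genes. Those were Hoxa3 and Hoxd9. Mutant to control, the 11 Hox genes had a median log2 ratio of 0.05, against 0.03 for all tested genes.

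Hoxa3 was higher in the mutant of every pair, as its signals above show, with log2 ratios of 1.46 (virgin), 0.80 (pregnant) and 1.09 (lactating). In the virgin and lactating pairs the control signal, 53.2 and 160.6, lay below the dark level. The fitted ratio was 1.12 ± 0.23 (SE, 3 pairs; limma adjusted p = 0.938, unadjusted p = 0.00134). Hoxd9 was likewise higher in every mutant, at 0.96, 0.37 and 0.30, with a fitted ratio of 0.54 ± 0.21 (SE; limma adjusted p = 0.938, unadjusted p = 0.0337). Neither difference passed after correction over all genes, and the other 3 probe sets of Hoxa3 had log2 ratios of mutant to control from -0.12 to 0.34.

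Hoxd8 was the third tested Hox gene higher in all 3 mutants, at log2 ratios of 0.25, 0.36 and 0.04, and Hoxa9 alone was lower in all 3, at -0.34, -0.02 and -0.93. Against those 3 and 1 of 11 Hox genes stand 15.1% of tested genes that were higher in every mutant and 10.7% that were lower. On other probe sets these directions did not hold in every pair. The second probe set of Hoxd8 was lower in the virgin mutant (742.8 and 635.7) and in the lactating mutant (377.7 and 335.8). That of Hoxa9 was higher in the virgin and pregnant mutants, with a fitted log2 ratio of 0.52. Below the limit for testing, Hoxd1, Hoxd3 and Hoxd13 were higher in every mutant and Hoxa10 and Hoxc5 lower. Hoxd1 gave 35.9 and 48.6 in virgin, 24.2 and 37.7 in pregnant and 95.1 and 100.3 in lactating glands. Hoxd3 gave 85.3 and 110.2, 93.4 and 96.6, and 193.4 and 268.3. Of these signals, 1 was above the dark level, that of Hoxd3 in the virgin mutant.

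Hoxd13 gave 24.0 and 47.0 in virgin, 28.3 and 37.9 in pregnant and 83.5 and 315.4 in lactating glands, all under the dark level. The second probe set of Hoxd13 was lower in every mutant, at 13.1 and 8.0, 41.9 and 36.9, and 13.3 and 7.3. Hoxc5 gave 249.1 and 125.4, 112.0 and 102.9, and 140.6 and 72.6. Hoxc5 was above the dark level on 4 arrays and Hoxa10, whose signals are given above, on 2. Other probe sets had fitted log2 ratios of mutant to control of 0.19 and -0.41 for Hoxc5 and -0.25 for Hoxa10.

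Of the tested Hox genes, Hoxc9 had the widest spread between pairs. It gave 258.4 in the virgin control against 39.4 in the mutant, 246.8 against 43.5 in the pregnant pair, and 185.8 against 408.5 in the lactating pair. Log2 ratios of mutant to control were -1.76, -1.64 and 0.95, so the lactating pair ran opposite to the others. The fitted ratio was -0.82 ± 0.52 (SE; limma adjusted p = 0.938), and the difference between stages was not tested. Hoxc9 was not called in any comparison of stages, and its single probe set was above the dark level on 3 arrays.

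**Figure D4:**
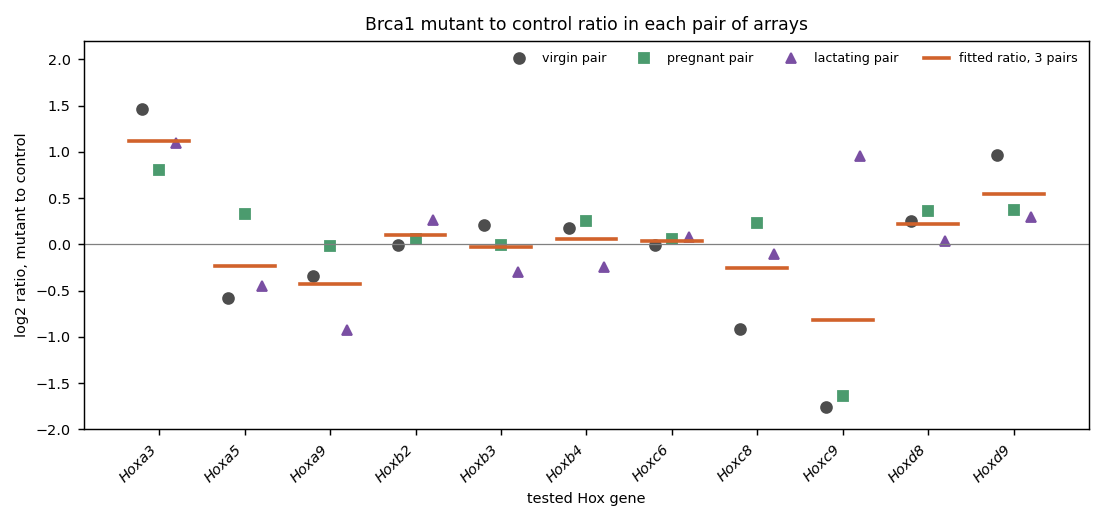
Log2 ratio of Brca1 mutant to control signal in the virgin (circles), pregnant (squares) and lactating (triangles) pair for the 11 tested Hox genes, with orange lines for the fitted ratio. Hoxa3 lies between 0.80 and 1.46 in all 3 pairs, while Hoxc9 runs from -1.76 to 0.95.

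The paralogs of group 9, which act together in mammary growth, differed in their calls. On the probe sets tested Hoxa9 fell, Hoxd9 rose in lactation and Hoxc9 was not called. The second probe set of Hoxa9 went the way of Hoxd9 in lactation, with log2 ratios of 0.72 to virgin and 1.53 to pregnant glands. Hoxb9 was dim throughout, at 11.8 and 102.5 in virgin, 26.5 and 27.1 in pregnant and 213.3 and 77.2 in lactating glands. It was above the dark level on no array. In paralog group 3, Hoxa3 was called higher from virgin to lactating, though with overlapping signals, and Hoxb3 was called lower. In group 8, Hoxc8 fell from virgin to pregnant, while Hoxd8 had a log2 ratio of -0.39 ± 0.21 there that did not pass. Both pregnant signals of Hoxd8 still lay below both virgin ones, and Hoxc8 and Hoxd8 were both called lower in lactation. Differences between paralogs were not tested.

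Genes that act with or on Hox genes were counted from lists. Of the Pbx and Meis cofactors 8 of 9 were measured and 6 tested. Against virgin glands, 8.26% of all tested genes were called lower in pregnancy and 28.3% in lactation. Meis2, which binds DNA with Hox and Pbx proteins, was the 1 of these 6 called lower than virgin at both later stages. Its signal was 404.4 and 551.8 in virgin, 120.8 and 131.7 in pregnant and 106.3 and 163.8 in lactating glands, a log2 ratio of -1.56 in pregnancy (limma adjusted p = 0.0144) and -1.51 in lactation (limma adjusted p = 0.00406). Meis1 was higher in lactation than in pregnancy (1.08; limma adjusted p = 0.0381), and the list had no other call between stages. Both lactating signals of Meis2 lay below the dark level and give only a bound. Those of Meis1, 360.8 and 290.5, lay below it too, and the part of the higher dark level in this rise was not tested.

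The MLL and menin complex, which keeps Hox genes active through histone methylation, had 8 of 8 members tested. None was called between virgin and pregnant glands. Against virgin glands the lactating ones had 3 higher, Kmt2b (log2 ratio 0.88), Wdr5 (0.69) and Rbbp5 (0.65), and 2 lower, Dpy30 (-1.26) and Psip1 (-1.20). These 5 of 8 stand beside 52.0% of all tested genes called in that comparison. From pregnant to lactating, Kmt2b rose by 0.78 and Dpy30 fell by 1.33.

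Retinoic acid is a classical inducer of Hox genes, and 8 of the 15 measured genes of its pathway were tested. In pregnancy the receptor gene Rarg (log2 ratio 1.02), the binding protein Crabp2 (1.15) and the synthesis enzyme Aldh1a1 (1.05) were higher than in virgin glands, and Aldh1a3 was lower (-1.38). In lactation Rarg (1.48) and Rxra (0.86) were higher and Aldh1a3 (-1.01) lower than in virgin glands. The lactating control signal of Aldh1a3, 192.2, lay below the dark level. Of all tested genes 14.7% were called in pregnancy and 52.0% in lactation against virgin glands. The caudal and ParaHox genes, relatives of the Hox genes outside the clusters, were all 6 too dim to be tested. No member of these lists was called between mutant and control.

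Genes just outside the clusters gave a local comparison. Of 24 flanking genes, 3 on each side of each cluster, 22 were measured and 18 tested. Between virgin and lactating glands 6 were higher and 7 lower, beside 23.7% and 28.3% of all tested genes. Between virgin and pregnant glands 1 was higher and 2 lower, beside 6.45% and 8.26%. Their median log2 ratios were -0.24 and -0.08, against -0.10 and -0.06 over all tested genes. In lactation 1 was higher and 3 lower next to Hoxa, 2 and 2 next to Hoxb, 3 and 0 next to Hoxc, and 0 and 2 next to Hoxd. Those next to Hoxc were Atf7 (log2 ratio 2.30), Calcoco1 (0.93) and Atp5g2 (0.67), and those next to Hoxd were Lnpk (-0.95) and Mtx2 (-0.79). Both lactating signals of Lnpk lay below the dark level. Next to Hoxa, Skap2 was lower (-1.09), and next to Hoxb, Atp5g1 was higher (1.16). Evx1 and Evx2, homeobox genes at the tail ends of Hoxa and Hoxd, were too dim to be tested. The transcript Hoxd3os1, on the strand opposite Hoxd3, was tested and not called, and Hoxa11os and Hoxb5os were not tested.

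Marker genes of several cell types shifted with the stages in which Hoxa9 and Hoxc8 fell. All 7 fibroblast markers were called lower in lactating than in virgin glands, and 2 were called lower in pregnant glands. Their summed signal was 110770 to 116606 in the virgin, 66303 to 74919 in the pregnant and 12502 to 18359 in the lactating glands. Of 6 tested adipocyte markers 5 were lower in lactation and 2 in pregnancy, with sums of 116024 to 120612, 75170 to 89407 and 46555 to 49303. Endothelial markers were lower in 4 of 5 and macrophage markers in 4 of 5 in lactation, and lymphocyte markers in 6 of 6 at both stages. In pregnancy 3 of 5 endothelial markers were lower. No macrophage marker was called lower there, and 1, C1qa, was called higher (log2 ratio 1.56). Of all tested genes 28.3% were called lower in lactation and 8.26% in pregnancy. The part of these shifts in the falls of Hoxa9, Hoxc8, Hoxb3 and Hoxd8 was not tested.

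Other markers moved with the genes that rose. All 7 skeletal muscle markers were higher in pregnant than in virgin glands, where Hoxa3 rose, with summed signals of 12252 to 35283 in the virgin, 129354 to 143819 in the pregnant and 65792 to 67449 in the lactating glands. Basal epithelial markers were higher in lactation in 4 of 7 and luminal markers in 2 of 7. Of all tested genes 23.7% were called higher in lactation and 6.45% in pregnancy, so the luminal count was near the share of all genes. Of the skin keratinocyte markers 1 of 2 tested was higher in lactation, and the 1 measured Schwann cell marker was too dim to be tested. No marker list had a member listed at 0, and the part of these shifts in the rises of Hoxa3, Hoxa5, Hoxb4, Hoxc6 and Hoxd9 was not tested. Beta-actin signal at the 3' end over that at the 5' end, a sign of RNA degradation where it is high, was 2.74 and 2.03 in virgin, 1.37 and 1.43 in pregnant and 1.91 and 1.58 in lactating glands. For Gapdh the same ratio was 3.5 and 1.52, 0.73 and 0.8, and 1.09 and 1.2. Both ratios were highest in the virgin control and lowest in the pregnant control, and their part in the comparisons of stages was not tested.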

How the data were processed

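Total RNA of 6 whole mammary glands, 1 mouse per array, was hybridised to a mouse 3' expression array. The authors deposited linear signal intensities made with MAS5, per the submitters' processing notes; its version was not given in the sources used here. No detection calls were used. Each array had a 2%-trimmed mean of 500.0 as deposited. Probe sets with 1 symbol were kept (34945 of 45101). Each gene was represented by its brightest probe set on average; except for Hox genes, probe sets prone to cross-hybridisation were passed over where another existed. Analysis was on log2(signal + 52.1), with the 25th percentile of the signals as pseudocount, which understates changes of dim genes. The limma model (version 3.58.1 under R 4.3.3, with a trended eBayes prior) had stage and genotype as terms and 2 residual degrees of freedom. All 6 arrays entered it. Figures were drawn with matplotlib 3.10.9. All 33 symbols matched RefSeq by gene ID. The code was tested on simulated data. The members, lists and rules were chosen with earlier results of these data known. All 6 array values were given for called Hox genes, for paralog group 9 and for Hox genes that moved 1 way in all 3 pairs; other lists were named by smallest p. The alternatives were other scalings, pseudocounts, limits on brightness, probe sets and model terms, and arrays left out. The number of arrays limits the precision.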

Additional observations from a re-analysis of the deposited data

Results flagged for a closer look

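Hoxb9 moved in opposite directions in different pairs. Mutant to control, its log2 ratio was 1.27 in the virgin pair, 0.01 in the pregnant pair and -1.04 in the lactating pair. With 1 pair per stage the difference was not tested, and none of the 6 signals of Hoxb9 was above the 90th percentile of the olfactory receptor probe sets on its array.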

How the results depend on the processing

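No Hox gene was called between mutant and control under any alternative run. The 3 calls between virgin and pregnant glands became 6 with no limit on brightness and 0 with a limit at the 75th percentile, which left 2 Hox genes to test, and ranged from 0 to 3 with 1 array left out. The 9 calls between virgin and lactating glands became 14, 2 and, with probe sets of a gene averaged, 5, and ranged from 5 to 8 with 1 array left out. The 8 calls between pregnant and lactating glands became 1 at the 75th percentile and 4 with the mean of probe sets, and ranged from 1 to 8. Single called genes kept direction and call in 46 of 53, 136 of 162 and 104 of 141 refits of these 3 comparisons, and none reversed. Other probe sets of a gene reversed some log2 ratios. From virgin to pregnant, Hoxa3 gave -0.84 and -0.18. From virgin to lactating, Hoxa5 gave -0.30, Hoxa9 0.72 and Hoxc6 -1.72. From pregnant to lactating, Hoxa3 gave 0.95, 1.11 and 0.92, Hoxa5 -0.97, Hoxa9 1.53 and Hoxc6 -1.02. The cause was not tested. The alternatives that subtract the olfactory median or pass over Hox probe sets prone to cross-hybridisation were chosen after seeing the data. Median centring moved the share of higher calls from virgin to pregnant from 43.8% to 26.5%. Mutant and control were paired by stage in the model, and without the stage as a block 0 Hox genes were called.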
